A study of Mus musculus with 8 samples.

Results

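The potassium channel genes of the mouse hippocampus were taken as every row of the count table whose symbol began with Kcn, followed by at least 1 letter and then a number. This rule found 97 of the 29442 genes in the table. Of these, 93 code for protein, and 4 are noncoding RNAs named after a channel gene (Kcnd3os, Kcnq1ot1, Kcnmb4os1 and Kcnmb4os2). The rule used symbols only and no measured value.

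The libraries came from polyA RNA of hippocampus, described in the methods as ventral hippocampus, of female C57BL/6 J mice aged 6 to 8 weeks. Mice behind the 4 DHEA libraries received dehydroepiandrosterone (DHEA), an adrenal androgen precursor, at 30 mg/kg/day by subcutaneous injection for 21 days. Mice behind the 4 sesame oil libraries received the vehicle over the same 21 days. The comparison asks which transcripts differed in the hippocampus after DHEA. All directions below follow the deposited labels, and log2 values above 0 mean higher with the label DHEA. The study's own list of differential genes carries the opposite sign, so the groups are named by their labels throughout. Every direction given here would turn if the labels were exchanged.

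Potassium channels let potassium leave or enter the cell and so set the resting potential, shape the action potential and time its repetition. Voltage-gated (Kv) channels open on depolarization, KCNQ channels carry the M-current that restrains repetitive firing, and calcium-activated channels follow calcium entry. Inward rectifiers include the G protein-gated GIRK channels, which mediate slow inhibition of hippocampal neurons, and the Kir channel of astrocytes. Two-pore-domain channels carry leak current.

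The libraries held between 31483772 and 38038361 counts, and the channel genes made up between 0.5552% and 0.6329% of them. No counts were found in any library for Kcnj1, Kcnk16 and Kcnk18. These 3 were among 8 genes with at most 3 counts in every library, the others being Kcna7, Kcna10, Kcne1, Kcnk7 and Kcnmb3. A count of 3, taken as the limit that a count of 0 allows, corresponded to between 0.08076 and 0.09521 CPM (counts per 1000000 after TMM normalization), and this limit covers counting error only. A mean count of at least 10 was reached by 83 genes and missed by 14. A mean of at least 1 FPKM (fragments per kilobase of gene and per unit of library total) was reached by 65 genes.

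Some libraries stood apart from the others. On the first principal component over 16813 genes, which held 29.6% of the variance, DHEA replicates 1 and 2 lay at 23.1 and 55.8, while the other 6 libraries lay between -20.8 and 0.793. The libraries also differed in how their counts followed the GC content of transcripts. The correlation of a gene's deviation from its mean with GC content lay between -0.0810 and -0.00109 in the 4 DHEA libraries and between 0.0377 and 0.102 in the 4 sesame oil libraries, so that the groups did not overlap. For the genes named at an unadjusted p under 0.05, values without DHEA replicates 1 and 2 are given below.

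The promoters shown here are those of channel genes to which the results below return. Kcnj6 and Kcnj9 encode GIRK2 and GIRK3, subunits of one type of channel. Kcnc1 encodes Kv3.1, a channel of fast-spiking cells. Kcnj13 and Kcne2 varied together between libraries. Each line gives the 250 bases before the annotated start, 5′ to 3′ on the gene's strand, from RefSeq on GRCm38.p6. The build of the counts is GRCm39, and the windows were matched by symbol alone. Capitals mark AGAACA, a half-site of the androgen and glucocorticoid receptors, GGGCGG, the GC box, and TATAAA, the TATA box, each searched on both strands.
Kcnj6: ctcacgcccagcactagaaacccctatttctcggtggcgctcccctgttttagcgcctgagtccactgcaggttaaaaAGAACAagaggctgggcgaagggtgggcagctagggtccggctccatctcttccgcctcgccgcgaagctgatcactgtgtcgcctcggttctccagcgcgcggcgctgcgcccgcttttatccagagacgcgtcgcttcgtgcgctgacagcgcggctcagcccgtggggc
Kcnj9: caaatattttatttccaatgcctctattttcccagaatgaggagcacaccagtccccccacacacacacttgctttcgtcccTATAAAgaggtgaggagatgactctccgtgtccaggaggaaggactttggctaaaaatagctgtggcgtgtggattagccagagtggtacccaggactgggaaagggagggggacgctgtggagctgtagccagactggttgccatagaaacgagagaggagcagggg
Kcnc1: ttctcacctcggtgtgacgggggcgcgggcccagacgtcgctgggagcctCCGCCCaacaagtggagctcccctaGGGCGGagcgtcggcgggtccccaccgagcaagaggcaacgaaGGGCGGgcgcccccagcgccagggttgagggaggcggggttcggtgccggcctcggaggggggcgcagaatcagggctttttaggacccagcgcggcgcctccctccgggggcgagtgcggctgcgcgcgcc
Kcnj13: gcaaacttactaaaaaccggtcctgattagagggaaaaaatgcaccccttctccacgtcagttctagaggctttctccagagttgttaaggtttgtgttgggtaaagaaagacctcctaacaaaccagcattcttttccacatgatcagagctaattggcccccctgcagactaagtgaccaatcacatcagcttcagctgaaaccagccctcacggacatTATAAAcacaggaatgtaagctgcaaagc
Kcne2: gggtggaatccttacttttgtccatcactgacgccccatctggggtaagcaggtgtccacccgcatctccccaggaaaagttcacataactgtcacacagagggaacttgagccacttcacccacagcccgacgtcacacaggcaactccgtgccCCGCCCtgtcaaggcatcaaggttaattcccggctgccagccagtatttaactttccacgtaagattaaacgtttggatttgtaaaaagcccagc
The Kcnj6 window, upstream of the first of its 2 starts in the table, is at chr16:94997697-94997946 on the minus strand and holds 1 AGAACA. The window of its other start, which is not printed, holds 0 AGAACA and 1 GGGCGG. The Kcnj9 window at chr1:172329323-172329572 on the minus strand holds 1 TATAAA. The Kcnc1 window at chr7:46396218-46396467 on the plus strand is 74.4% GC and holds 3 GGGCGG. The Kcnj13 window at chr1:87394730-87394979 on the minus strand holds 1 TATAAA. Kcne2 also has 2 starts in the table, and its printed window at chr16:92292139-92292388 on the plus strand holds 1 GGGCGG, while the other, not printed, holds 0 GGGCGG and 1 AGAACA. A window was found for 71 of the channel genes. GGGCGG was present in 49.3% of these 71 genes' windows and in 32.9% of 27025 promoters of the same length (1 window per gene), AGAACA in 9.86% and 16.2%, and TATAAA in 2.82% and 13.0%. No matches overlap in the printed windows. These matches describe letters only and no binding was measured here.

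The channel genes with the highest levels covered several types of channel. Per length, Kcnab2, which encodes an auxiliary β subunit of Kv1 channels, had 60.5 ± 3.46 FPKM in the DHEA libraries and 61.3 ± 1.75 in the sesame oil libraries (mean ± SD, n = 4 each, as are all such values below). Kcnip2, a calcium-binding partner of Kv4 channels, had 39.7 ± 1.04 and 42.4 ± 4.14 FPKM.

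These genes set the upper end of the range. Kcnab1, another β subunit, had a mean of 33.0 FPKM over all libraries, Kcnj10, the Kir4.1 channel of astrocytes, 31.0 FPKM, and Kcna1, the Kv1.1 channel of axons, 30.3 FPKM. The median of the 97 genes was 2.45 FPKM, against 0.322 FPKM for all genes in the table. Means of the 2 groups lay close together for most of these genes, as the plot of FPKM by library shows.

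**Figure D1:**
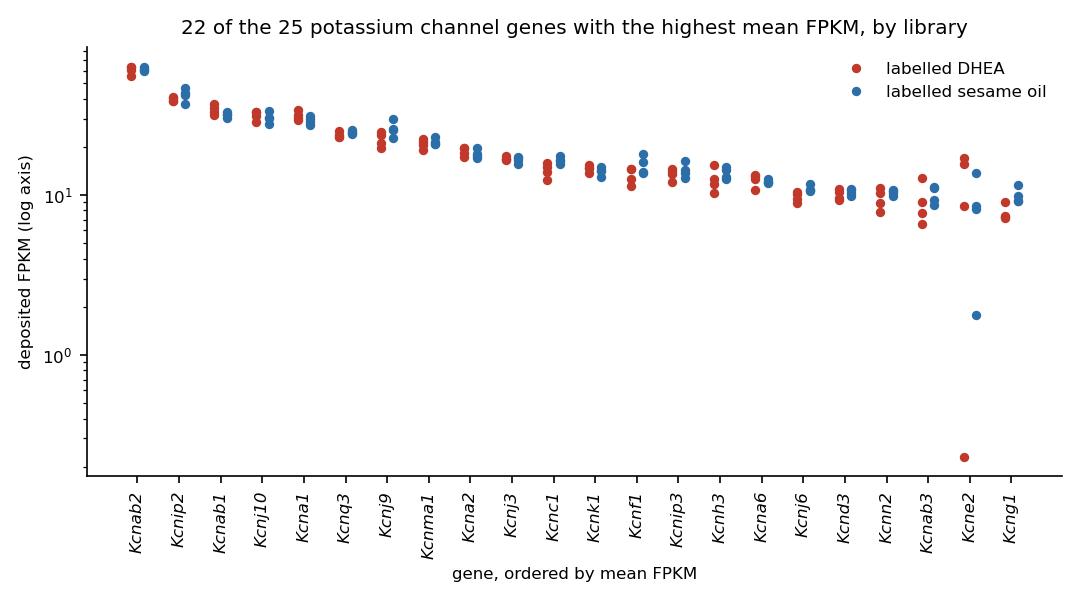
Deposited FPKM (log axis) of 22 of the 25 channel genes with the highest mean, 1 point per library, with libraries labelled DHEA in red and those labelled sesame oil in blue. The groups lie among each other for most genes, and Kcne2 is the gene whose libraries spread most, from 0.230 to 17.2 FPKM.

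The length behind an FPKM value matters for some channel genes. The deposited FPKM equal the counts divided by the library total and by 1 length per gene, and that length was over 1.5 times the longest annotated transcript (GENCODE vM21) for 30 of the 94 genes with a value. For Kcnd2, the Kv4.2 channel of the dendritic A-current, the implied length was 98276 bases and the longest transcript 5152 bases. Kcnd2 therefore had 1.39 FPKM and rank 58, but rank 16 by counts per transcript length. Kcnip4, a partner of Kv4.2, ranked 76 by FPKM and 15 per transcript length, and Kcnj6 ranked 20 and 4. Kcnip4 was chosen for mention after its values were seen. Kcnab2 held rank 1 on both scales. The counts may include reads from outside the longest transcript, which would raise the rank per transcript length. This was not tested.

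No channel gene differed between the groups after correction over all genes. With edgeR's quasi-likelihood test and Benjamini-Hochberg adjustment over the 27612 genes tested, 0 of the 94 tested channel genes had an adjusted p under 0.05 (0% of all genes, smallest value among the channel genes 0.282). DESeq2 gave 0 channel genes among the 153 genes it put at an adjusted p under 0.05. At an unadjusted p under 0.05, edgeR gave 10 channel genes, and DESeq2 gave 11, beside 8.21% of all genes. The 10 genes are 10.6% of the 94 tested, beside 9.31% of all genes. Where the mean count reached 10, they are 10 of 83, beside 13.1% of all genes at that level. The share of channel genes was thus near the background.

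By direction, 3 channel genes were higher at an unadjusted p under 0.05 (4.82% of all genes) and 7 were lower (4.49% of all genes). The 3 higher were Kcna1, Kcnk6 and Kcnk13. Among the 7 lower were Kcng1, Kcnc1, Kcnc4, Kcnj6, Kcnj9 and the noncoding Kcnd3os. None reached the study's further threshold of a 2-fold change (0 channel genes, beside 1.6% of all genes). With filterByExpr, which drops genes of low count, 62 of all genes met it in place of 442, and again 0 channel genes. The fitted log2 fold change was above 0 in 42 channel genes and below 0 in 52, beside 14141 and 13471 of all genes tested. Its median was -0.03, beside 0.01 for all genes. At mean counts from 10 up, the median size of the log2 fold change was 0.12 in channel genes and 0.12 in all genes.

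**Figure D2:**
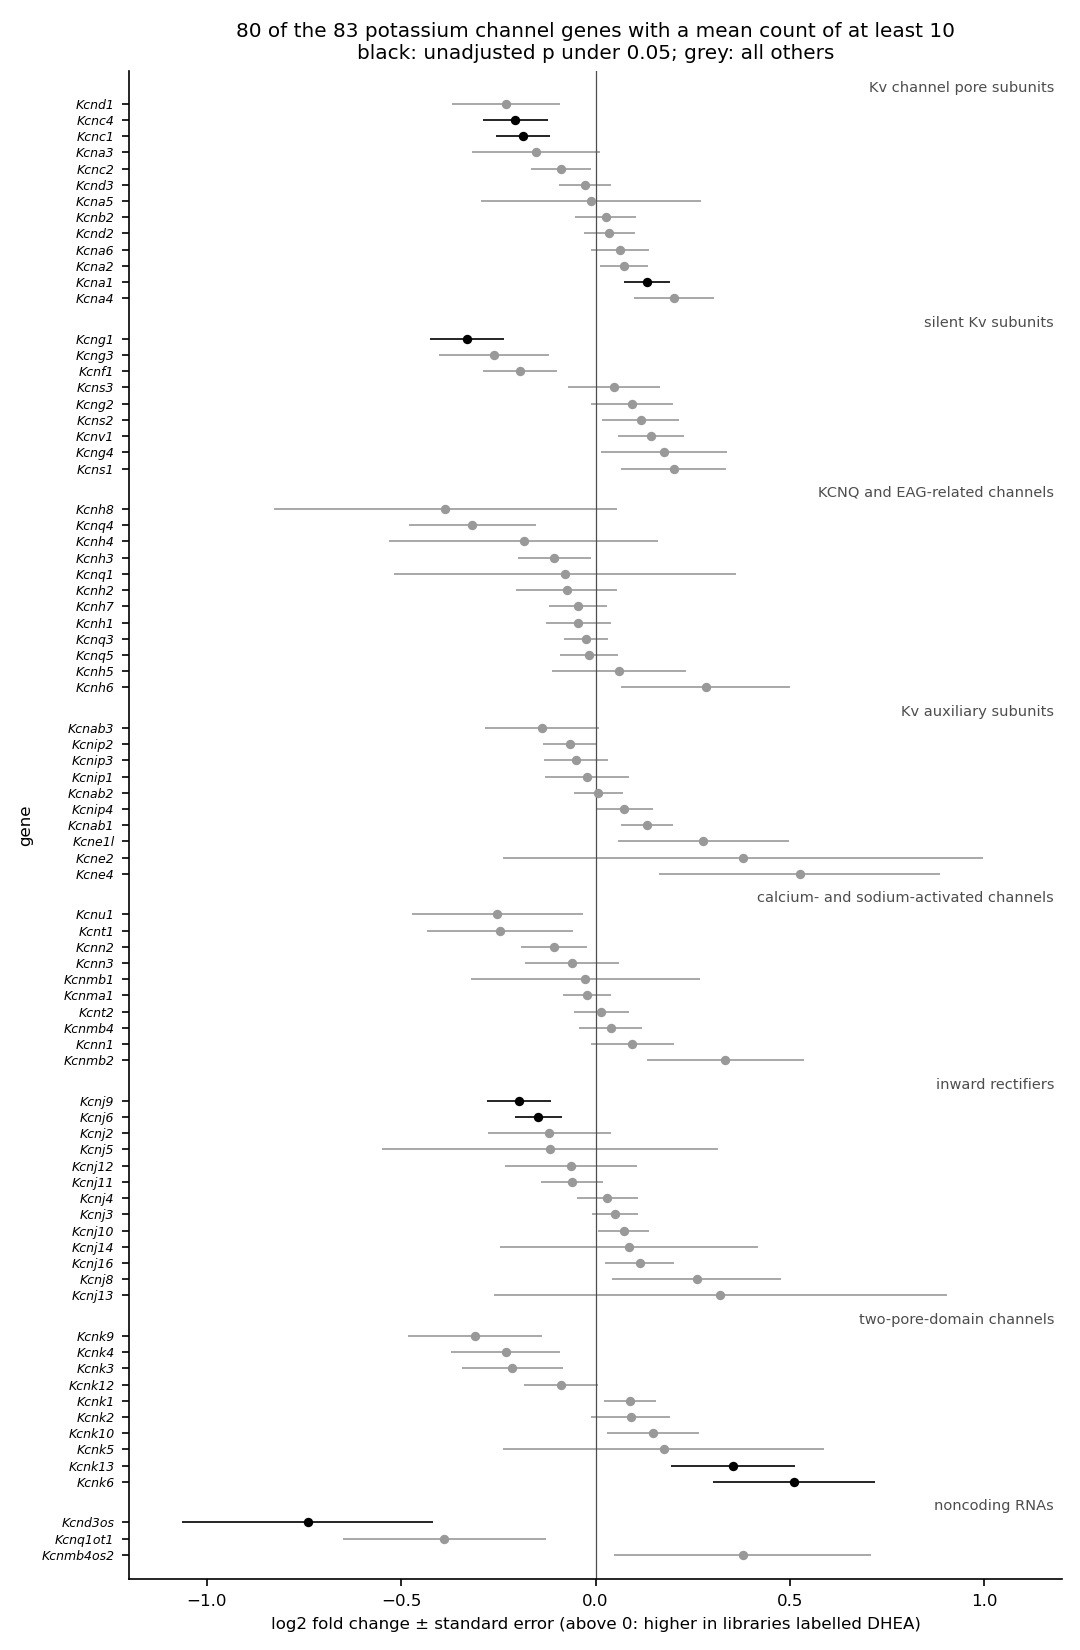
Log2 fold change with its standard error (edgeR) for 80 of the 83 channel genes whose mean count was at least 10, in 8 groups, with genes at an unadjusted p under 0.05 in black and the others in grey. Values right of 0 are higher in the libraries labelled DHEA, and the black points farthest from 0 are Kcnd3os (-0.74) and Kcnk6 (0.51).

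The count of 10 depended on single libraries. For the counts listed next, the share of all genes moved in the same direction but by a smaller proportion. Without DHEA replicate 1, sesame oil replicate 1 or sesame oil replicate 3 the count was 6, beside 7.08%, 6.53% and 7.5% of all genes. Without DHEA replicate 3 it was 18, beside 13.4%, and without DHEA replicate 4 it was 19, beside 11.9%. Without DHEA replicates 1 and 2 together it was 5, beside 7.89% of all genes, and 3 of the 10 genes were among those 5, namely Kcng1, Kcna1 and Kcnk6. The split by direction moved as well. It was 4 higher and 3 lower without DHEA replicate 2, 2 higher and 16 lower without DHEA replicate 3, and 3 higher and 2 lower without DHEA replicates 1 and 2. It was 0 higher and 8 lower without sesame oil replicate 2, 0 higher and 7 lower with limma-trend on log2(FPKM + 0.1), and 1 higher and 5 lower with limma-trend on log2(FPKM + 1).

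Among Kv channel pore subunits, 1 of 17 genes was higher and 2 were lower at an unadjusted p under 0.05 (17.6%, beside 9.31% of all genes). The 2 lower ones were Kcnc1 and Kcnc4, which encode fast Kv3 channels. Kcnc1 had 141.9, 126.7, 156.9 and 147.0 CPM in DHEA replicates 1 to 4 and 163.7, 153.5, 174.2 and 159.9 CPM in sesame oil replicates 1 to 4. DHEA replicate 3 lay above the lowest sesame oil library, and the other DHEA libraries lay below all of them. The log2 fold change was -0.19 (SE 0.07, edgeR's quasi-likelihood p = 0.0149, Benjamini-Hochberg adjusted p = 0.409), and the exact permutation test of mean CPM gave p = 0.0571.

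Kcnc4, the Kv3.4 channel, had 57.26, 56.8, 71.32 and 70.4 CPM in the DHEA libraries and 72.2, 67.68, 79.88 and 75.45 CPM in the sesame oil libraries. DHEA replicates 1 and 2 were the low ones, while replicates 3 and 4 lay within the sesame oil range. The log2 fold change was -0.21 (SE 0.08, edgeR p = 0.0237, adjusted p = 0.457, exact permutation p = 0.114), and without DHEA replicates 1 and 2 it was -0.06 with an edgeR p of 0.359. Kcnc2, another Kv3 channel, had -0.09 (SE 0.08, adjusted p = 0.666 by edgeR).

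Kcna1 had 279.5, 272.5, 283.1 and 302.1 CPM in the DHEA libraries and 252.6, 264.7, 246.5 and 273.3 CPM in the sesame oil libraries. The groups overlapped through DHEA replicate 2 and sesame oil replicate 4 alone. The log2 fold change was 0.13 (SE 0.06, edgeR p = 0.0375, adjusted p = 0.505, exact permutation p = 0.0571). Apart from Kcna1, Kcnc1 and Kcnc4, the Kv pore subunits did not pass the threshold. Kcna2, which assembles with Kcna1 in axons, had a log2 fold change of 0.07 (SE 0.06, adjusted p = 0.666 by edgeR), and Kcnd2 0.04 (SE 0.07, adjusted p = 0.863).

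Silent Kv subunits form no channel alone and modify Kv2 channels. Of these 10 genes, 1 (Kcng1) was lower at an unadjusted p under 0.05 and 0 were higher, beside 9.31% of all genes in either direction. Kcng1 had 38.77, 32.34, 30.63 and 30.16 CPM in the DHEA libraries and 48.14, 41.18, 38.37 and 38.18 CPM in the sesame oil libraries. DHEA replicate 1 lay just above sesame oil replicates 3 and 4, and the other 3 DHEA libraries lay below all 4 sesame oil libraries. The difference on the log2 scale was -0.33 (SE 0.09, edgeR p = 0.00255, adjusted p = 0.282, exact permutation p = 0.0857). It was the channel gene with the smallest p. Its edgeR p stayed under 0.05 with each of the 8 libraries left out (highest p 0.0176) and under each of 11 other settings, and without DHEA replicates 1 and 2 it was 0.000346 with a log2 fold change of -0.46.

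Kcnf1, another silent subunit, had a log2 fold change of -0.19 (SE 0.10, adjusted p = 0.549 by edgeR). Its unadjusted p fell under 0.05 without DHEA replicate 1, DHEA replicate 3, sesame oil replicate 2 or sesame oil replicate 4, and with each library left out the log2 fold change ranged from -0.25 to -0.11. Without DHEA replicates 1 and 2 together it was -0.26 with an edgeR p of 0.0393. The 3 Kcns genes had values above 0, of which none passed the threshold (lowest edgeR p 0.155, for Kcns1).

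Of the 13 KCNQ and EAG-related channels, 1 was lower at an unadjusted p under 0.05 and 0 were higher (7.69%, beside 9.31% of all genes). A log2 fold change below 0 was found in 11 of the 13, beside 13471 of the 27612 genes tested. Whether this family differed from other genes was not tested. Kcnq3, a subunit of the M-channel, had 284.8 ± 9.94 CPM in the DHEA libraries and 289.4 ± 8.86 CPM in the sesame oil libraries. That is a log2 fold change of -0.02 (SE 0.06, adjusted p = 0.897 by edgeR).

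Kcnh6, an ERG channel with few reads here, had 2.261, 2.272, 2.025 and 2.491 CPM in the DHEA libraries and 1.751, 1.963, 1.999 and 1.719 CPM in the sesame oil libraries. The groups did not overlap, but edgeR's test gave a log2 fold change of 0.28 (SE 0.22, p = 0.209, adjusted p = 0.666, exact permutation p = 0.0286). The permutation p follows from the absence of overlap, by which Kcnh6 was chosen, and adds nothing to it. Groups without overlap were found for 2 of the 83 channel genes whose mean count was at least 10, Kcnh6 and Kcnj6, beside 7.17% of all genes at that level. For Kcnh6 the nearest libraries were DHEA replicate 3 (2.025 CPM) and sesame oil replicate 3 (1.999 CPM). After thinning to equal totals, 0 channel genes were higher without overlap, so Kcnh6 was lost.

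**Figure D3:**
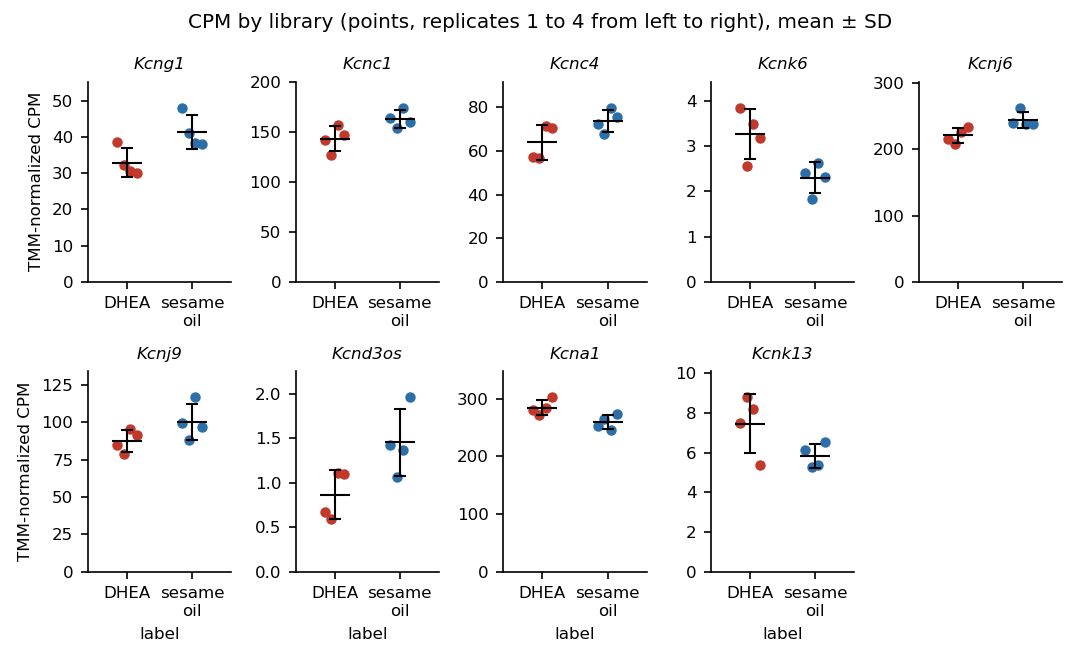
CPM in each library (points, replicates 1 to 4 from left to right) and mean ± SD (bars) for 9 of the 10 channel genes at an unadjusted p under 0.05, with each vertical axis starting at 0. Of these, Kcnj6 alone shows 4 DHEA libraries that all lie below the 4 sesame oil libraries.

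Of the 15 inward rectifiers, 14 were tested, 2 were lower at an unadjusted p under 0.05 and 0 were higher (14.3%, beside 9.31% of all genes). Both that were lower encode GIRK subunits. GIRK genes were not tested as a set, and Kcnj3, another of them, did not pass. Kcnj6, the GIRK2 subunit, had 215.9, 207.4, 226.1 and 234.2 CPM in the DHEA libraries and 240.0, 262.9, 238.2 and 237.5 CPM in the sesame oil libraries. All DHEA libraries lay below all sesame oil libraries, and sesame oil replicate 2 stood above the other 3. This is a log2 fold change of -0.15 (SE 0.06, edgeR p = 0.0259, adjusted p = 0.467, exact permutation p = 0.0286). The last is the smallest p that 4 against 4 libraries allow.

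Kcnj9, the GIRK3 subunit, had 84.5, 78.79, 95.1 and 91.29 CPM in the DHEA libraries and 99.69, 87.78, 116.5 and 96.91 CPM in the sesame oil libraries. DHEA replicates 3 and 4 lay above sesame oil replicate 2. The fitted log2 fold change was -0.20 (SE 0.08, edgeR p = 0.0278, adjusted p = 0.477, exact permutation p = 0.114). Kcnj3, the GIRK1 subunit that pairs with both, had 191.2 ± 8.21 CPM in the DHEA libraries and 184.6 ± 7.64 CPM in the sesame oil libraries. Its log2 fold change was 0.05 (SE 0.06, adjusted p = 0.744 by edgeR). Kcnj10 had 223.8 ± 14.4 and 212.7 ± 14.5 CPM, a log2 fold change of 0.07 (SE 0.07, adjusted p = 0.666 by edgeR).

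Of the 14 two-pore-domain channels, 12 were tested, 2 were higher at an unadjusted p under 0.05 and 0 were lower (16.7%, beside 9.31% of all genes). Kcnk6, the TWIK2 channel, had 3.85, 2.552, 3.495 and 3.175 CPM in the DHEA libraries and 2.415, 1.822, 2.634 and 2.312 CPM in the sesame oil libraries. The groups overlapped only through DHEA replicate 2 and sesame oil replicate 3. EdgeR put the log2 fold change at 0.51 (SE 0.21, edgeR p = 0.025, adjusted p = 0.463, exact permutation p = 0.0571). Kcnk13, the THIK1 channel known from microglia, had 7.511, 8.779, 8.184 and 5.365 CPM in the DHEA libraries and 6.127, 5.299, 5.395 and 6.522 CPM in the sesame oil libraries. DHEA replicate 4 was as low as the lowest sesame oil libraries, while the other 3 were above all of them. On the log2 scale the difference was 0.35 (SE 0.16, edgeR p = 0.0391, adjusted p = 0.515, exact permutation p = 0.114). Kcnk1, the TWIK1 channel with the highest level of this type (14.4 FPKM), had a log2 fold change of 0.09 (SE 0.07, adjusted p = 0.666 by edgeR). Kcnk2, the TREK1 channel, had 0.09 (SE 0.10, adjusted p = 0.731 by edgeR).

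Of the 12 Kv auxiliary subunits and the 12 calcium- and sodium-activated channels, 0 passed an unadjusted p under 0.05 with edgeR, beside 9.31% of all genes. Kcnab2 had 596.1 ± 41.3 and 593.1 ± 16.2 CPM, a log2 fold change of 0.01 (SE 0.06, adjusted p = 0.984 by edgeR), whose sign turned in several settings. Kcnip2 had -0.07 (SE 0.07, adjusted p = 0.695 by edgeR). Kcnma1, the large-conductance BK channel, had 372.1 ± 18.0 and 377.7 ± 22.4 CPM, a log2 fold change of -0.02 (SE 0.06, adjusted p = 0.92 by edgeR). Kcnn2, the small-conductance SK2 channel, had -0.11 (SE 0.08, adjusted p = 0.666 by edgeR). Its value was -0.03 without DHEA replicate 1, and -0.18 with an unadjusted edgeR p of 0.0409 without DHEA replicate 3. Without DHEA replicates 1 and 2, the signs of Kcnma1 and Kcnn2 turned, as did those of Kcnd2 and Kcnk2.

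Among the 4 noncoding RNAs, Kcnd3os, whose symbol places it opposite Kcnd3, had 0.673, 0.589, 1.11 and 1.095 CPM in the DHEA libraries and 1.419, 1.065, 1.365 and 1.957 CPM in the sesame oil libraries. These are low values, with DHEA replicates 3 and 4 just above sesame oil replicate 2. The difference on the log2 scale was -0.74 (SE 0.32, edgeR p = 0.0335, adjusted p = 0.5, exact permutation p = 0.0857). Kcnd3 itself had -0.03 (SE 0.07, adjusted p = 0.897 by edgeR). Whether the counting used strand is not given in the sources used here, so reads of the 2 genes may not have been told apart.

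Apart from Kcng1 and Kcnc1, each of the 10 genes lost its unadjusted p under 0.05 without some single library, and none of the 10 turned its direction. Kcnc4 lost it without DHEA replicate 1 or 2 or sesame oil replicate 3 or 4 (highest edgeR p 0.0814). Kcnk6 lost it without DHEA replicate 1 or 3 or sesame oil replicate 2 (highest edgeR p 0.0826). Kcnj6 lost it without DHEA replicate 1 or 2 or sesame oil replicate 2 (highest edgeR p 0.113). For Kcnj9 the libraries were DHEA replicates 1 and 2 and sesame oil replicate 3 (highest edgeR p 0.132). For Kcna1 they were DHEA replicate 4 and sesame oil replicates 1 to 3 (highest edgeR p 0.135). For Kcnd3os they were DHEA replicates 1 and 2 and sesame oil replicates 1 and 4 (highest edgeR p 0.129). Kcnk13 passed only without DHEA replicate 4 or sesame oil replicate 4 (highest edgeR p 0.137). With all libraries kept, Kcnk13 did not pass with filterByExpr (edgeR p 0.0525) or after thinning to equal totals (edgeR p 0.0512). Nor did it pass with either limma-trend fit.

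DHEA replicates 1 and 2 stood apart on the first principal component, and most of these differences were smaller without both. No other pair of libraries was left out, so whether another pair would do the same was not tested. Without DHEA replicates 1 and 2, the log2 fold change was -0.11 for Kcnc1 with an edgeR p of 0.0975, -0.09 for Kcnj6 with 0.109 and -0.11 for Kcnj9 with 0.23. It was -0.40 for Kcnd3os with 0.245 and 0.21 for Kcnk13 with 0.273. Kcna1 had 0.17 with 0.0083 and Kcnk6 0.53 with 0.0337, so these 2 and Kcng1 were no smaller without them.

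The fold change varied with GC content, both in the channel genes and in the table as a whole. Over the 83 genes, the Spearman correlation of GC content with the log2 fold change was -0.203, and over 15594 genes of the table it was -0.202. These correlations run across genes, which are not independent replicates. The 48 channel genes above 49.7% GC, the median of all genes, had a median log2 fold change of -0.07, and the 35 others 0.04. Of the genes at an unadjusted p under 0.05, 6 lower and 3 higher ones were among the 48, and 1 lower one was among the 35. In the table as a whole, 716 lower and 307 higher genes were among the 7797 above the median, and 294 lower and 796 higher ones among the 7797 others.

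With each library's trend with GC content removed, the correlation over the 83 genes was -0.00434 and 8 of the 10 genes kept an unadjusted p under 0.05. Kcnc4, with a log2 fold change of -0.16 and an edgeR p of 0.0571, and Kcnj9, with -0.16 and 0.056, did not. Kcng1 had a log2 fold change of -0.29 with an edgeR p of 0.00762, and Kcnj6 -0.16 with 0.015, after this step.

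**Figure D4:**
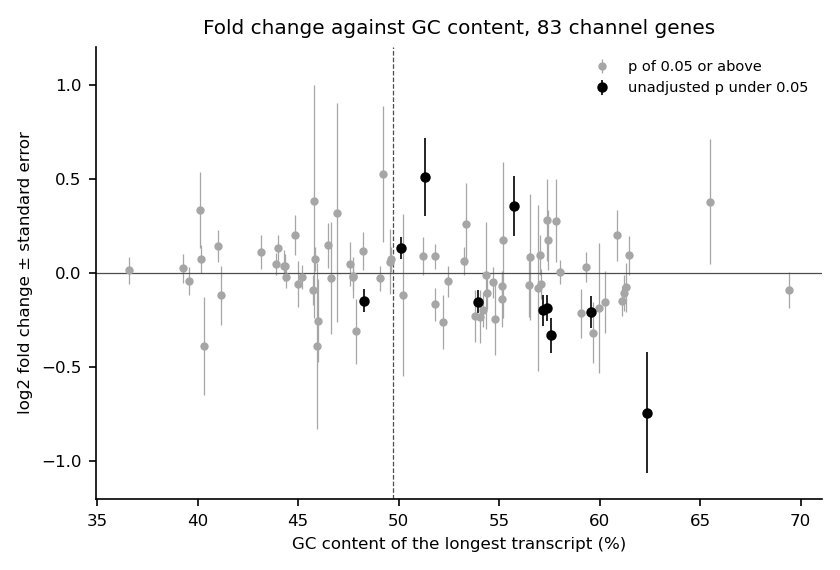
Log2 fold change with its standard error (edgeR) against the GC content of the longest transcript for the 83 channel genes whose mean count was at least 10, with the median GC content of all genes (49.7%) as the dashed line. The genes right of the line have a median of -0.07 and those left of it 0.04, with a Spearman correlation of -0.203 across genes.

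In both groups, 2 channel genes varied between libraries far more than the others. Kcnj13, the Kir7.1 channel, and Kcne2, an auxiliary subunit, are both known from the apical membrane of the choroid plexus. They were chosen for mention after their values were seen. Among the 67 channel genes whose mean count was at least 100, the highest library held 73.9 times the CPM of the lowest for Kcne2 and 37.5 times for Kcnj13. Next came Kcnq1ot1 with 3.5 times, and the median was 1.37 times.

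Kcnj13 had 87.41, 2.328, 44.41 and 62.27 CPM in the DHEA libraries and 60.27, 36.53, 51.7 and 8.864 CPM in the sesame oil libraries. Kcne2 had 31.09, 0.4207, 15.04 and 27.24 CPM and 24.09, 14.41, 15.17 and 3.083 CPM. DHEA replicate 2 was lowest for both genes, sesame oil replicate 4 was next, and DHEA replicate 1 was highest.

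Markers of the choroid plexus (Ttr, Folr1, Kl, Clic6, Enpp2 and Otx2) summed to 6710.9, 348.8, 3428.3 and 6218.1 CPM in the DHEA libraries and 4488.9, 3068.4, 3477.4 and 912.2 CPM in the sesame oil libraries. The most abundant was Ttr, and none was at 0 in all libraries. The 8 libraries fell in the same order by this sum, by Kcnj13 and by Kcne2. The log2 fold change between the groups was 0.32 (SE 0.58, adjusted p = 0.859 by edgeR) for Kcnj13 and 0.38 (SE 0.62, adjusted p = 0.844) for Kcne2. Without DHEA replicate 2 alone, the values were 0.71 with an edgeR p of 0.0466 and 0.78 with 0.0364, so 1 library decided on which side of the unadjusted threshold both fell. In bulk tissue, fewer cells of a type and less RNA per cell cannot be told apart.

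**Figure D5:**
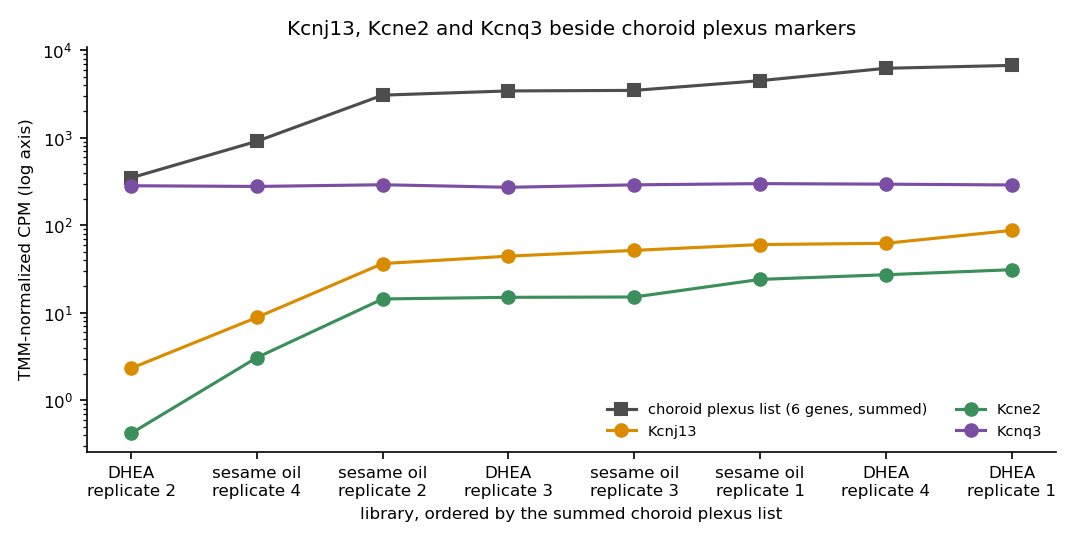
CPM (log axis) of Kcnj13, Kcne2, Kcnq3 and the sum of 6 choroid plexus markers in each library, with libraries ordered by that sum. Kcnj13 and Kcne2 rise with the sum from DHEA replicate 2 to DHEA replicate 1, while Kcnq3 stays between 271.8 and 299.4 CPM.

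Some markers of other cell types also differed between the groups at an unadjusted p under 0.05, as did 9.31% of all genes. None passed adjustment (smallest adjusted p by edgeR 0.24 for myelin, 0.315 for astrocytes and 0.303 for microglia). All 6 myelin markers were higher in the DHEA libraries at an unadjusted p under 0.05 by edgeR, with sums of 6163.2, 7801.7, 6086.9 and 6283.1 CPM against 4932.8, 4908.5, 4159.4 and 5931.2 CPM and Mbp as the most abundant. Of the astrocyte markers 4 of 6 were higher, with sums of 5333.7, 6385.3, 5729.8 and 5536.1 CPM against 4635.8, 4995.0, 5225.5 and 5424.6 CPM and Slc1a2 as the most abundant. Of the microglia markers 3 of 6 were higher, with sums of 359.4, 420.4, 334.5 and 315.6 CPM against 289.3, 311.4, 304.9 and 335.3 CPM. The sums did not overlap for myelin and overlapped for the other 2 lists.

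At an unadjusted p under 0.05 by edgeR, 0 of 10 markers of hippocampal excitatory neurons and 0 of 7 of inhibitory interneurons differed. The log2 fold change was below 0 in 8 of the 10 (median -0.06) and in 4 of the 7 (median -0.04), beside 13471 of the 27612 genes tested. No test compared these lists with those of the other cell types. The excitatory list, led by Camk2a, summed to 6017.5, 6250.6, 5845.3 and 6047.9 CPM against 5876.5, 6476.9, 5973.3 and 6110.7 CPM, and the interneuron list, led by Gad1, to 746.3, 715.6, 702.9 and 655.0 CPM against 766.1, 678.4, 754.3 and 683.4 CPM. The part of any of these cell types in the values of the channel genes was not tested.

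Of the remaining lists, 2 of 7 genes of endothelium and mural cells, 1 of 4 of ependyma, 0 of 6 of the choroid plexus and 0 of 6 of the thalamus were higher at that threshold, and none was lower. Of the neocortex list, 1 of 5 was lower. Of the anterior pituitary list, 3 of 7 were lower (Gh, Prl and Pomc), and this list summed to 3.365, 1.851, 2.136 and 2.354 CPM in the DHEA libraries and 3.531, 30.25, 3.618 and 6.907 CPM in the sesame oil libraries. Sesame oil replicate 2, the library with the highest Kcnj6, thus also had the highest sum of pituitary markers, and the part of this in the Kcnj6 value was not tested.

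Proteins that work with the channels were followed through a list of 24 partner genes. By edgeR at an unadjusted p under 0.05, 1 was lower and 0 were higher (4.17%, beside the 9.31% of all genes). The 1 was Abcc8, the sulfonylurea receptor of ATP-sensitive channels, with 19.54, 18.01, 25.44 and 26.85 CPM in the DHEA libraries and 27.74, 26.49, 24.94 and 28.58 CPM in the sesame oil libraries. DHEA replicates 1 and 2 were the low ones, and the others lay within the sesame oil range. This gave a log2 fold change of -0.26 (SE 0.11, unadjusted p of 0.0332, adjusted p = 0.499 by edgeR). Without DHEA replicates 1 and 2 it was -0.05 with an edgeR p of 0.557. Abcc9, the other sulfonylurea receptor, had 13.59, 12.37, 13.73 and 13.28 CPM in the DHEA libraries and 12.19, 11.41, 10.5 and 11.98 CPM in the sesame oil libraries. All its DHEA libraries lay above all its sesame oil libraries, and its log2 fold change was 0.20 (SE 0.10, unadjusted p of 0.0665, adjusted p = 0.562 by edgeR). Abcc9 was chosen after its values were seen. The count of partner genes was 0 without DHEA replicate 1, DHEA replicate 2 or sesame oil replicate 1, and 2 without DHEA replicate 3. The partners with the highest levels were Gabbr1, a GABA-B receptor subunit that gates GIRK channels, with 105.6 FPKM and a log2 fold change of -0.01 (SE 0.06), and Dlg4, the scaffold PSD-95, with 102.6 FPKM and -0.04 (SE 0.06).

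The sodium pump rebuilds the potassium gradient that the channels use. Of its 12 genes, 2 were lower by edgeR at an unadjusted p under 0.05 and 0 were higher (16.7%, beside the 9.31% of all genes). Where the mean count reached 10, the share was 18.2%, beside 13.1% of all genes. Fxyd5, which encodes a small regulator of the pump, had 9.799, 7.293, 7.712 and 11.8 CPM in the DHEA libraries and 11.71, 11.72, 12.09 and 11.86 CPM in the sesame oil libraries. DHEA replicate 4 reached the sesame oil values and the other 3 lay below. EdgeR put the log2 fold change at -0.37 (SE 0.14, unadjusted p of 0.0157, adjusted p = 0.41 by edgeR), and without DHEA replicates 1 and 2 it was -0.29 with an edgeR p of 0.08. Atp1b1, the β subunit with the highest level of the list (785.2 FPKM), had -0.01 (SE 0.07, adjusted p = 0.984 by edgeR). Without DHEA replicate 2 or 3 the count was 4 in place of 2.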

How the data were processed

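The authors trimmed reads with fastp, aligned them with HISAT2 and counted them per gene with HTSeq, on the build GRCm39 according to the submitters' processing notes. Versions, annotation and strand setting are not given in the sources used here. The authors deposited raw counts and FPKM calculated from them. The FPKM equal the counts divided by the library total and 1 length per gene (within 0.1% in 25234 of 25234 genes).

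R 4.3.3 and edgeR 4.0.16 gave TMM-normalized CPM from the counts and the quasi-likelihood test, fitted to the 27612 genes with at least 1 count in the 4 DHEA and 4 sesame oil libraries, without covariates and with a prior count of 0.125. P-values were adjusted by Benjamini-Hochberg over these genes. A standard error is the fold change on the log2 scale over the root of its F statistic. The exact permutation test of mean CPM was two-sided and ran over 70 allocations (smallest p 0.0286). No pair of libraries of one group agreed within sampling noise. The labels give no batch or cage and do not tie each library to its own animal, so p-values measure the spread between these libraries.

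GC content was that of the symbol's longest transcript in GENCODE vM21. Of 16813 genes whose mean count reached 10, 15594 had one, as did 83 of 83 channel genes. The scripts were tested on simulated counts with 200 changed genes. At an adjusted p under 0.05, edgeR recovered 57% of the 1.5-fold and 82% of the 2-fold changes. It also called 39 unchanged genes.

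Genes were named if they had an unadjusted p under 0.05, the 2 highest mean FPKM of their type or groups without overlap, or were on a list of well-known hippocampal channels. Others are marked as chosen after their values were seen, as were Kcnab1, Kcnj3, Kcnc2, Kcnd3 and Kcns1. The members and lists were chosen with earlier results of these data known.

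The alternatives were RLE normalization, DESeq2 1.42.0, filterByExpr or at least 10 counts over all libraries as a filter, robust moderation, a prior count of 1, limma-trend (limma 3.58.1) on log2(FPKM + 1) and log2(FPKM + 0.1), removal of the GC trend (lowess, span 0.3), thinning to equal totals, other fold thresholds, and leaving out libraries. Some genes that meet the naming rule are not reported here.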

Additional observations from a re-analysis of the deposited data

Results flagged for a closer look

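Kcnj6 had 262.9 CPM in sesame oil replicate 2, while the other 3 sesame oil libraries lay between 237.5 and 240.0 CPM. This library stood far from the others of its group, with a gap of 0.905 of the group's whole range. Of 54 groups of 4 libraries examined this was the 1 so found, and chance alone would give about 2.7.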

How the results depend on the processing

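The counts of channel genes past an adjusted p under 0.05 and past a 2-fold change were 0 in every setting run. The count at an unadjusted p under 0.05 (10) was 6 with limma-trend on log2(FPKM + 1), 5 without DHEA replicates 1 and 2, and 6 to 19 with each library left out, where the share of all genes ran from 6.53% to 13.4%. It stayed between 7 and 11 in the other settings. Limma-trend on log2(FPKM + 1) lost Kcna1 (limma p 0.0915), Kcnc4 (0.0528), Kcnj9 (0.0552) and Kcnk13 (0.116). On log2(FPKM + 0.1) it lost Kcna1 (limma p 0.0943), Kcnk6 (0.0563) and Kcnk13 (0.134). Groups without overlap (2 genes) numbered 1 after thinning to equal totals (7.23% of all genes), 8 without DHEA replicates 1 and 2 (20.1%), and 4 to 8 with each library left out (9.29% to 15.1%), where fewer libraries make overlap rarer. They numbered 3 with the deposited FPKM (7.61%), a setting chosen after seeing the data. The partner count (1) was 0 with filterByExpr, 0 with the GC trend removed, 2 without DHEA replicates 1 and 2, and 0 to 2 with each library left out. The sodium pump count (2) was 2 to 4 with each library left out. The share of channel genes past the unadjusted p was 0% with a 2-fold change, 1.06% with 1.5-fold and 10.6% with no fold threshold, beside 1.6%, 2.18% and 9.31% of all genes. Where no cause is named, the cause was not tested.

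Log2 fold changes that turned sign were small or belonged to the choroid plexus genes. Kcnab2 (0.00714) was -0.000565 with DESeq2, -0.000555 with RLE, -0.00136 with at least 10 counts, -0.00344 with filterByExpr, -0.0221 and -0.0224 with limma-trend, -0.0591 without DHEA replicates 1 and 2, and -0.0307 to 0.0542 with each library left out. Kcnd2 was -0.0504 without DHEA replicates 1 and 2, -0.00885 with the GC trend removed and -0.00744 to 0.087 with each library left out. Without DHEA replicates 1 and 2, Kcnk2 was -0.116, Kcnma1 0.0185 and Kcnn2 0.0295. With limma-trend on log2(FPKM + 1), Kcne2 was -0.00779, and on log2(FPKM + 0.1) Kcne2 was -0.319 and Kcnj13 -0.177. With each library left out, Kcnip4 ranged from -0.00225 to 0.11, Kcnj13 from -0.113 to 0.711, Kcnk2 from -0.0415 to 0.172 and Kcnma1 from -0.0503 to 0.0123.

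No paired analysis was possible because the replicate numbers follow accession order and the labels give no pairing. Counting errors are large where the mean count is under 10. With 4 libraries a group, differences of the size seen here were not separated from the spread between libraries after adjustment.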
